A study of Mus musculus with 8 samples.

Results

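The aminoacyl-tRNA synthetases described here were 36 genes of the deposited table of 49492 rows, 20 encoding cytosolic enzymes and 16 encoding mitochondrial ones, chosen by gene symbol with the names ending in 2 taken as mitochondrial. Levels came from RNA-seq of polyA RNA in 8 libraries of mouse embryonic fibroblasts (MEFs), which are connective tissue cells grown from embryos. They were Pontin f/f MEFs derived by the 3T3 protocol. All stably expressed Flag-tagged Pontin from a lentivirus and had lost their own Pontin through a Cre virus. Pontin, the product of Ruvbl1, is an ATPase found in chromatin-remodelling complexes. Pontin WT cells carried the wild-type form, and Pontin RA cells a form in which 2 arginines that the methyltransferase CARM1 modifies were replaced by alanine. Each line was kept in normal medium (DMEM with serum) or in glucose-free medium with dialyzed serum, which gave 4 groups of 2 libraries, called here WT normal, WT starved, RA normal and RA starved. The length of starvation before RNA extraction is not given in the sources used here. WT and RA were 2 stably expressing lines, so an effect of the line and an effect of the Pontin form cannot be told apart. The labels do not say whether the 2 libraries of a group came from separate cultures, and the study's general statement on independent experiments does not name these libraries, so p-values measure only the spread between them, which may be technical.

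Aminoacyl-tRNA synthetases join each amino acid to its tRNA, the step that fixes the genetic code before the ribosome acts. The cytosol and the mitochondrion mostly use separate enzymes for the same amino acid, all encoded in the nucleus, and a few genes serve both places: Gars (glycine) and Kars (lysine) each give a cytosolic and a mitochondrial form. Eprs is a fused enzyme for glutamate and proline, and Farsa and Farsb are the subunits of the cytosolic phenylalanine enzyme. When amino acids run short or proteins misfold, phosphorylation of eIF2 raises translation of the transcription factor ATF4, which is known to activate many genes of amino acid synthesis, transport and cytosolic tRNA charging.

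Each library held 43205841 to 56363034 recovered reads, and each of the 36 genes had between 182 and 52970 reads in every library and passed the filter on low values. A value here is CPM, with library sizes as the authors scaled them. Differences are on the log2(value + 1) scale, were tested with limma over 16232 genes and were called at an adjusted p under 0.05. All 8 fibroblast markers were present, with a summed value of 8454 to 8807 in normal medium, 3156 to 3231 in WT starved and 4155 to 4165 in RA starved libraries. Col1a1 carried part of that fall, by 3.04 on the log2 scale in WT and by 1.29 in RA. Summed values of the epithelial (3 genes), immune (3), endothelial (2) and muscle (2) markers stayed at or under 4.59 in every library. Of the 2 neural markers, Rbfox3 was at or near 0 and Tubb3, a tubulin that fibroblasts also express, fell from between 69.6 and 80.3 to between 9.89 and 19.9. In bulk RNA, fewer cells of a type and less RNA per cell cannot be told apart, and the part of these marker changes in the results below was not tested. Pontin RNA comes from the added construct as well as from any undeleted allele and so does not check the deletion. It lay between 27.6 and 28.4 in the WT libraries. The RA libraries gave 36.8 and 32 in normal medium and 45 and 42.9 under starvation. Pontin RNA was called higher in RA in normal medium (0.287, limma adjusted p = 0.00946) and under starvation (0.623, limma adjusted p = 2.94e-07). The part of this difference in the results below was not tested.

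Cytosolic enzymes were far more abundant than mitochondrial ones per length of transcript. In WT normal libraries the median level was 58.4 per kilobase of transcript among the cytosolic genes and 6.8 among the mitochondrial genes, and in RA normal libraries 60 and 6.33. The cytosolic levels ran from 26.1 for Cars, the cysteine enzyme, to 127 for Nars, the asparagine enzyme, in WT normal cells. Mars2, the mitochondrial methionine enzyme, was lowest of the 36 at 1.08, a level that counts its 1 long exon of 11294 bases in the annotation. Lars2, the mitochondrial leucine enzyme, was highest of its compartment at 66.4, a level to be read with the doubt about its reads given further on. Under starvation Sars, the serine enzyme, had the highest level, at 331 in WT and 335 in RA cells. Of the mitochondrial genes other than Lars2, the highest in WT normal cells was Tars2, the threonine enzyme, at 21.6.

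Most cytosolic enzymes were higher under glucose starvation, by more at the median than the mitochondrial ones. In WT cells 19 of 20 cytosolic genes were called, 16 higher and 3 lower, against 78.6% of all genes tested (39.3% higher and 39.2% lower). In RA cells 18 of 20 were called, 15 higher and 3 lower, against 68.7% of all genes (35% higher and 33.7% lower). Of the 16 mitochondrial genes, 12 were called in WT (9 higher, 3 lower) and 13 in RA (10 higher, 3 lower). The calls lay to the higher side in both compartments. At least 2-fold higher and called were 8 cytosolic genes and 1 mitochondrial gene in WT, against 7.84% of all genes, and 5 and 1 in RA, against 4.44%. That mitochondrial gene in RA was Lars2, whose difference was 0.441 without RA starved replicate 2. The median log2 difference of the cytosolic genes was 0.65 in WT and 0.73 in RA, that of the mitochondrial genes 0.18 and 0.21, and that of all genes 0.0049 and 0.013. When values were scaled by total reads instead, the mitochondrial calls in WT split into 5 higher and 5 lower, and the cytosolic split kept its counts.

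**Figure D1:**
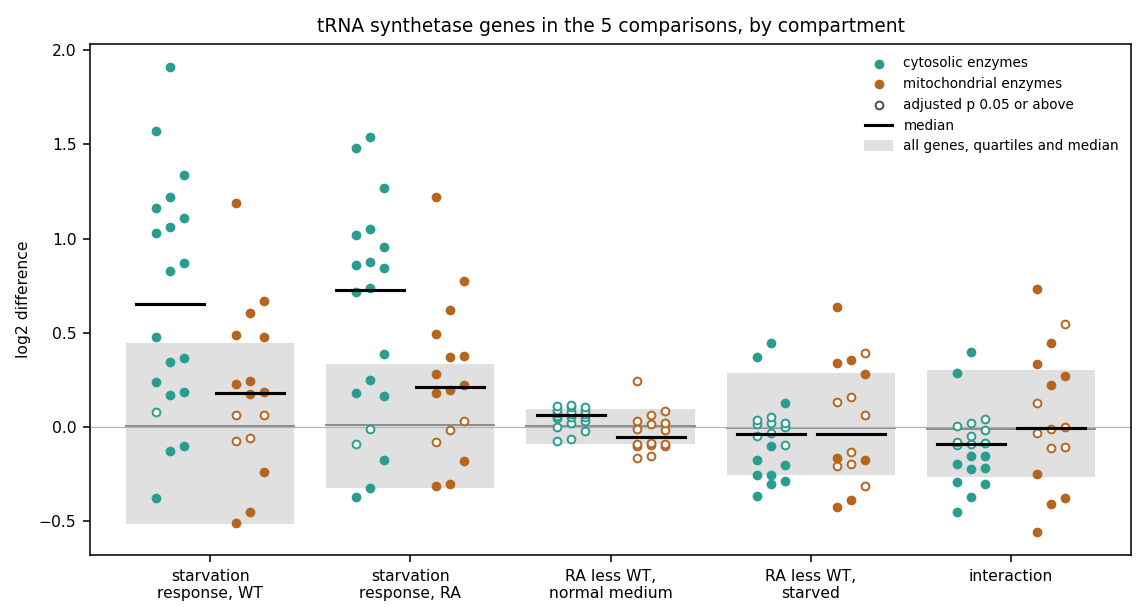
Log2 difference (y axis) of each tRNA synthetase gene in the 5 comparisons (x axis), with cytosolic enzymes in green and mitochondrial enzymes in brown; open points had an adjusted p of 0.05 or above, black lines are medians and grey boxes the quartiles of all genes tested. The cytosolic medians of 0.65 and 0.73 in the 2 starvation responses lie above the grey boxes, and in normal medium every point is open.

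Summed over the 20 cytosolic genes, the value went from 3827 and 3865 in WT normal to 6945 and 7008 in WT starved libraries. In RA it went from 3935 and 4067 in RA normal to 6701 and 6701 in RA starved libraries. The mitochondrial sum without Lars2, whose replicates disagree and are described further on, was 389.6 and 389.2 in WT normal and 394.5 and 404.5 in WT starved libraries. It was 386 and 381 in RA normal and 424 and 411 in RA starved libraries. The cytosolic sum therefore rose well beyond the gap between replicates in both lines, and the mitochondrial sum rose by little more than that gap in WT.

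Wars (tryptophan; GRCm38 chr12:108860030-108894174, minus strand), which interferon also induces, rose most of the 36 in WT cells. Its value was 83.6 and 81.5 in WT normal and 310.3 and 315 in WT starved libraries. In RA cells Wars gave 82.6 and 90.9 in normal medium and 251 and 256 under starvation, so each starved library stood apart from each fed one and the starved RA libraries stayed below the starved WT ones. The log2 difference was 1.91 (SE 0.044, limma adjusted p = 1.87e-16) in WT, a 3.75-fold rise, and 1.54 (SE 0.044, limma adjusted p = 9.75e-15) in RA, a 2.9-fold rise. Sars (serine; GRCm38 chr3:108424865-108445209, minus strand) read 204 and 210.5 in WT normal and 609 and 627 in WT starved libraries. In RA cells Sars gave 214 and 233 in normal medium and 631 and 619.7 under starvation. Starved libraries of both lines lay between 609 and 631. The response was 1.57 (SE 0.042, limma adjusted p = 1.46e-15) in WT and 1.48 (SE 0.042, limma adjusted p = 1e-14) in RA, with an interaction (the RA response less the WT response) of -0.088 (SE 0.060, limma adjusted p = 0.237). For Nars, which charges tRNA with asparagine, the libraries gave 347 and 353 in WT normal and 886 and 886 in WT starved libraries. In RA cells Nars gave 374 and 384 in normal medium and 784 and 783 under starvation. Its rise was 1.34 (SE 0.036, limma adjusted p = 1.46e-15) in WT and 1.05 (SE 0.036, limma adjusted p = 1.15e-13) in RA, with no overlap between media in either line.

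Eprs, which charges both glutamate and proline tRNAs (GRCm38 chr1:185363044-185428360, plus strand), had values of 212 and 207 in WT normal and 495 and 487 in WT starved libraries. In RA cells Eprs gave 208 and 205 in normal medium and 497 and 500.3 under starvation. The 2 lines were nearly alike in each medium, with a response of 1.22 (SE 0.036, limma adjusted p = 3.94e-15) in WT and 1.27 (SE 0.036, limma adjusted p = 8.06e-15) in RA, and an interaction of 0.043 (SE 0.050, limma adjusted p = 0.5). Gars (glycine, GRCm38 chr6:55038007-55079500, plus strand), which serves both compartments from 1 gene, gave 271 and 280.3 in WT normal and 553 and 577 in WT starved libraries. In RA cells Gars gave 276 and 304 in normal medium and 576 and 596 under starvation. It rose 2.05-fold in WT (log2 1.03, SE 0.045, limma adjusted p = 1.05e-12) and 2.02-fold in RA (log2 1.02, SE 0.045, limma adjusted p = 3.26e-12). Kars, the other gene used in both compartments (GRCm38 chr8:111993443-112011323, minus strand), did not follow it: 254 and 264 in WT normal and 265 and 282 in WT starved libraries. In RA cells Kars gave 269.5 and 281 in normal medium and 210.2 and 214 under starvation. The WT difference was 0.078 (SE 0.041, limma adjusted p = 0.0917), whereas in RA the gene fell, by 0.37 (SE 0.041, limma adjusted p = 3.71e-07) on the log2 scale, with the starved RA libraries below all others. In all 15 cytosolic genes were called higher in both lines. With WT and RA log2 differences, they included Aars (alanine, 1.11 and 0.96), Cars (1.06 and 0.84), Yars (tyrosine, 1.16 and 0.86), Tars (threonine, 0.87 and 0.71) and Iars (isoleucine, 0.83 and 0.74).

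**Figure D2:**
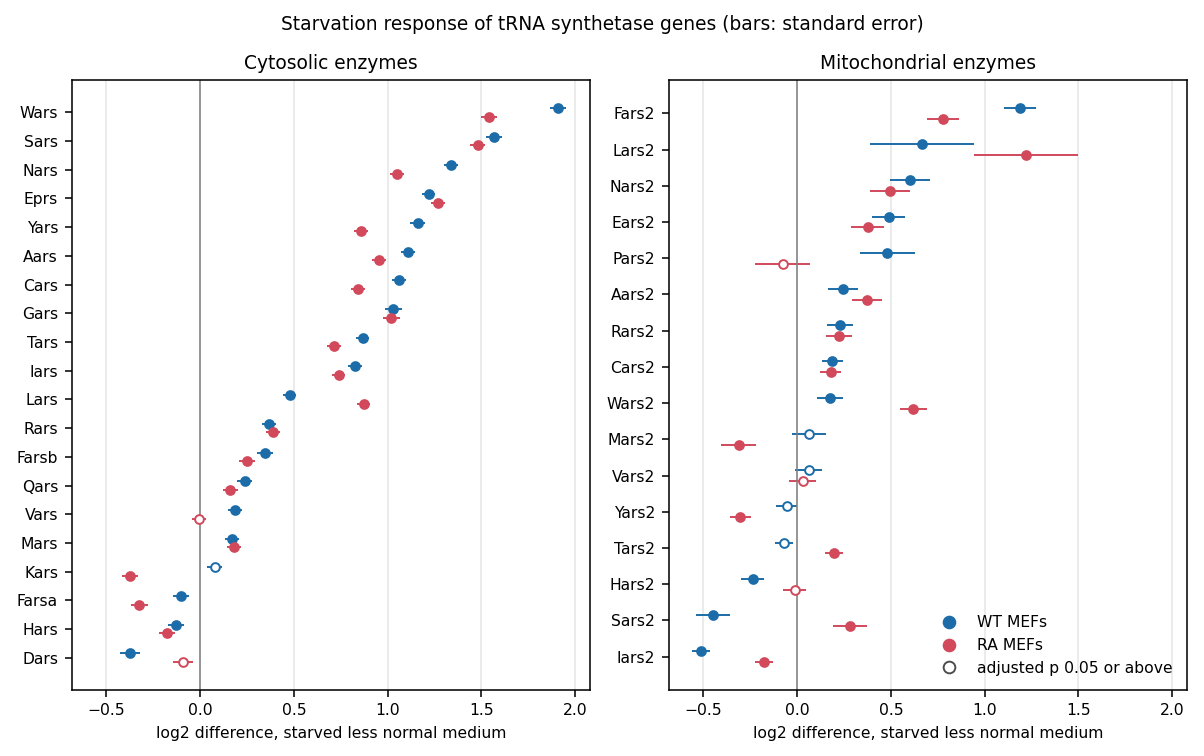
Log2 difference between starved and normal medium (x axis) for each cytosolic (left) and mitochondrial (right) enzyme, in WT (blue) and RA (red) MEFs; bars are the standard error of the fit and open points had an adjusted p of 0.05 or above. Wars at 1.91 in WT tops the cytosolic panel, while most mitochondrial points lie between -0.5 and 0.7, with Sars2 on opposite sides of 0 in the 2 lines.

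A list of 12 cytosolic enzymes commonly described as ATF4 targets rose as a whole: 12 of 12 were called higher in WT and in RA, against 39.3% and 35% of all genes tested, with a median log2 difference of 1.09 and 0.92. The remaining 8 cytosolic genes (Dars, Farsa, Farsb, Hars, Kars, Qars, Rars and Vars) had 4 higher and 3 lower in WT, with a median of 0.13, and 3 higher and 3 lower in RA, with a median of -0.05. Membership of that list was written with results of these data known, so the contrast is a description. Atf4 itself had values of 406 and 412 in WT normal and 866 and 922 in WT starved libraries. In RA cells Atf4 gave 433 and 465 in normal medium and 1014 and 999.8 under starvation, a rise of 1.12 (SE 0.043, limma adjusted p = 1.74e-13) in WT and 1.16 (SE 0.043, limma adjusted p = 2.86e-13) in RA. Among 9 regulators of the pathway, 8 were higher and 1 lower in WT, and 7 were higher in RA. Ddit3 (CHOP, a transcription factor induced by ATF4) rose by 4.13 and 3.67, and Trib3, a pseudokinase that dampens the pathway, by 3.38 and 3.62. Of 13 ATF4 targets outside tRNA charging, 13 rose in each line, with medians of 1.6 and 1.54. Asns, which makes asparagine, the amino acid that Nars loads, rose by 1.81 in WT and 1.77 in RA.

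Because the listed enzymes moved together, their promoters were searched for the element that ATF4 binds with C/EBP partners, spelled TGATGNAA and read on both strands. The windows were RefSeq promoter sequences on GRCm38.p6, from 250 bases before to 50 bases after each start, and 27 of the 36 genes had one by exact symbol (13 cytosolic and 14 mitochondrial). The element occurred in 5 of 13 cytosolic windows (38.5%), in none of the 14 mitochondrial windows, in 4.51% of 27025 genes and in 2.66% of the 10352 tested genes with a window. One cytosolic match each in Aars, Gars, Iars, Tars and Yars is shown in gene orientation because the element is what these genes share, with the matched letters in capitals. Of those shown, all but the match in Yars read as the reverse complement.
Aars, chr8:111033840-111033869, plus strand: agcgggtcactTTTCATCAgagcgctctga
Gars, chr6:55037960-55037989, plus strand: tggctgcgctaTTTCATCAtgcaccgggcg
Iars, chr13:49682126-49682155, plus strand: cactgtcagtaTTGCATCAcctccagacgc
Tars, chr15:11399655-11399684, minus strand: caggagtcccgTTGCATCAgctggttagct
Yars, chr4:129189895-129189924, plus strand: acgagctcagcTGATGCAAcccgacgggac
The matches of Gars and Tars began 30 and 15 bases before the start used by RefSeq, and the matches shown for Aars, Iars and Yars 9, 7 and 3 bases after it. These 5 genes rose by 0.83 to 1.16 on the log2 scale in WT cells. Of the 12 listed ATF4 targets, 8 had a window, and 5 of those held a match. Sars and Eprs had a window without these letters. Wars, Cars and Nars, which also rose, had no window by exact symbol and so were not searched. A match is a description of the sequence, and binding was not measured.

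The mitochondrial windows were searched in the same way for the letters of NRF1, a factor known for genes of mitochondrial biogenesis, spelled CGCATGCG. They were in 2 of 14 mitochondrial windows (14.3%), no cytosolic window, 2.07% of all genes and 4.18% of tested genes.
Vars2, chr17:35667621-35667650, minus strand: agagtcttttaCGCATGCGcctgcgtgtcc
Vars2, chr17:35667595-35667624, minus strand: gtccccgcccaCGCATGCGcgcgcacctcg
Wars2, chr3:99141016-99141045, plus strand: cagaggacaggCGCATGCGtagtaagcaca
Vars2 (valine) was called in none of the 5 comparisons, and Wars2 (tryptophan) rose in both lines. The ETS letters CCGGAAGT, as bound by GABP, were in 2 cytosolic windows (Farsa and Mars) and 1 mitochondrial window (Rars2), against 4.31% of all genes and 8.77% of tested genes. E-box letters CACGTG were in 4 cytosolic windows (Aars, Farsb, Iars and Tars) and 1 mitochondrial window (Ears2), against 8.09% of all genes and 11.5% of tested genes. The FOXO letters GTAAACA were in Iars2 and Vars2, against 4.05% of all genes and 3.05% of tested genes.

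Several cytosolic synthetases sit in 1 large assembly, the multisynthetase complex, with the scaffold proteins Aimp1, Aimp2 and Eef1e1. Its 8 enzymes (Eprs, Iars, Lars, Mars, Qars, Rars, Kars and Dars) had 6 called higher and 1 lower in each line, against 78.6% of all genes called in WT and 68.7% in RA, with medians of 0.30 in WT and 0.28 in RA. The 12 cytosolic genes outside it had 10 higher and 2 lower in WT and 9 and 2 in RA, with medians of 1.05 and 0.85. Qars, the glutamine enzyme (GRCm38 chr9:108507706-108515941, plus strand), read 96.5 and 92.7 in WT normal and 113 and 110.3 in WT starved libraries. In RA cells Qars gave 99.5 and 100.1 in normal medium and 113 and 111 under starvation. Its starved libraries lay above the fed ones in both lines, by 0.24 (SE 0.040, limma adjusted p = 3.62e-05) in WT and 0.16 (SE 0.040, limma adjusted p = 0.00179) in RA. Dars, the aspartate enzyme (GRCm38 chr1:128363707-128417368, minus strand), went the other way, with 82.2 and 84.9 in WT normal and 62.3 and 66 in WT starved libraries. In RA cells Dars gave 85.1 and 92.8 in normal medium and 79.8 and 86.8 under starvation. The WT libraries fell without overlap, by 0.38 (SE 0.053, limma adjusted p = 5.07e-06), while the RA libraries of both media overlapped and differed by -0.092 (SE 0.053, limma adjusted p = 0.132). Lars, the leucine enzyme that has also been described as a leucine sensor upstream of mTORC1, had values of 198 and 199 in WT normal and 277 and 276 in WT starved libraries. In RA cells Lars gave 207 and 203 in normal medium and 378 and 376 under starvation. It rose by 0.48 (SE 0.035, limma adjusted p = 1.27e-09) in WT and by more in RA, 0.87 (SE 0.035, limma adjusted p = 8.2e-13).

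Scaffold genes were uneven. Aimp1 had values of 78.2 and 74.2 in WT normal and 137 and 139.7 in WT starved libraries. In RA cells Aimp1 gave 80.8 and 75.8 in normal medium and 104 and 100.3 under starvation, a response of 0.86 (SE 0.045, limma adjusted p = 1.4e-11) in WT and 0.38 (SE 0.045, limma adjusted p = 9.4e-07) in RA. Aimp2 did not pass the test in WT (-0.073, limma adjusted p = 0.212) and fell in RA by 0.43 (SE 0.053, limma adjusted p = 1.53e-06). Eef1e1 differed by 0.19 in WT, which was called, and by 0.034 in RA, which was not.

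Hars and Farsa were the other cytosolic genes called lower. Hars (histidine) read 124 and 128 in WT normal and 115 and 115 in WT starved libraries. In RA cells Hars gave 128 and 137 in normal medium and 119 and 115 under starvation, a small fall of 0.13 (SE 0.043, limma adjusted p = 0.0124) in WT and 0.18 (SE 0.043, limma adjusted p = 0.00157) in RA. Farsa (GRCm38 chr8:84856989-84869257, plus strand), the alpha subunit of the phenylalanine enzyme, read 101 and 107 in WT normal and 97 and 96.5 in WT starved libraries. In RA cells Farsa gave 102 and 109 in normal medium and 84.7 and 83.3 under starvation. Its fall was 0.33 (SE 0.045, limma adjusted p = 5.57e-06) in RA and 0.10 (SE 0.045, limma adjusted p = 0.0462) in WT. The WT call was lost in 5 of the 8 fits that left out 1 library. Farsb, the beta subunit of the same enzyme, was called higher in both lines, by 0.35 and 0.25. The RNAs of the subunits of 1 enzyme were thus called in opposite directions.

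Among the mitochondrial genes, Fars2, the phenylalanine enzyme of that compartment (GRCm38 chr13:36117412-36726280, plus strand), rose most in WT. Its value was 12.5 and 11.8 in WT normal and 27.2 and 30.8 in WT starved libraries. In RA cells Fars2 gave 12.9 and 11.2 in normal medium and 22.2 and 20.4 under starvation, with starved libraries above fed ones in both lines, and the response was 1.19 (SE 0.086, limma adjusted p = 1.11e-09) in WT and 0.78 (SE 0.086, limma adjusted p = 4.63e-07) in RA. Its annotated exons share 501 bases with Nrn1 on the opposite strand and 115 with Lyrm4, and the library kit does not mark strand. Nrn1 moved the other way (from 109.5 and 105.3 to 51.9 and 55.8 in WT), and Lyrm4 rose (from 29 and 29 to 33 and 33.7 in WT). Nars2 (asparagine, GRCm38 chr7:96951505-97064758, plus strand) had 7.35 and 6.61 in WT normal and 10.7 and 11.5 in WT starved libraries. In RA cells Nars2 gave 7.03 and 6.01 in normal medium and 10.2 and 8.96 under starvation. The rise was 0.60 (SE 0.11, limma adjusted p = 6.45e-05) in WT and 0.50 (SE 0.11, limma adjusted p = 0.000549) in RA, at values of 6 to 11.5. Ears2, which charges glutamate and also the mitochondrial glutamine tRNA that an amidotransferase then corrects, was called higher by 0.49 and 0.38, and Aars2, Cars2 and Rars2 by 0.18 to 0.37 in the 2 lines. When 1 library was left out, the calls of Cars2 and of Rars2 were each lost in 2 fits in WT and 2 in RA, and that of Aars2 in 1 fit in WT (0.178, limma adjusted p = 0.105, without WT starved replicate 2). Total-read scaling also ended the WT calls of Aars2 (limma adjusted p = 0.0594) and Cars2 (limma adjusted p = 0.0837).

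Wars2 (GRCm38 chr3:99141068-99239186, plus strand) read 23.4 and 24.6 in WT normal and 28.2 and 26.3 in WT starved libraries. In RA cells Wars2 gave 23.5 and 21.1 in normal medium and 36.4 and 33.2 under starvation. RA cells made the larger step, 0.62 (SE 0.070, limma adjusted p = 6.13e-07), and WT cells a small one, 0.17 (SE 0.070, limma adjusted p = 0.0321), whose call was lost in 2 fits that left out 1 library and under total-read scaling. Iars2 (isoleucine, GRCm38 chr1:185284726-185329396, minus strand) fell in both lines, from 76.7 and 77.3 to 54.5 and 52.9 in WT and from 81.3 and 75.3 to 67.7 and 70.4 in RA. Neither fall overlapped with the fed libraries, and the differences were -0.51 (SE 0.047, limma adjusted p = 2.77e-08) and -0.18 (SE 0.047, limma adjusted p = 0.00311). The gene shares 2034 exon bases with Rab3gap2 on the opposite strand, which rose from 80.9 and 84.1 to 174.9 and 173.7 in WT, and the handling of such reads is not given in the sources used here. Hars2 (histidine) was called lower in WT and not called in RA, with 38.3 and 37.9 in WT normal and 31.4 and 32.9 in WT starved libraries. In RA cells Hars2 gave 36.1 and 35.3 in normal medium and 37.7 and 33.1 under starvation. The WT difference was -0.24 (SE 0.062, limma adjusted p = 0.00217), and that in RA -0.014 (SE 0.062, limma adjusted p = 0.852).

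Sars2, the mitochondrial serine enzyme (GRCm38 chr7:28741992-28753871, plus strand), was the only member that the main test called in opposite directions in the 2 lines. With total-read scaling Tars2 was also called lower in WT (-0.14, limma adjusted p = 0.0107), and it kept its call higher in RA. The value of Sars2 was 12.7 and 12.3 in WT normal and 8.51 and 9.3 in WT starved libraries. In RA cells Sars2 gave 11.1 and 12.3 in normal medium and 13.6 and 15.3 under starvation. Starved WT libraries were the lowest of the 8 and starved RA libraries the highest. Sars2 fell by 0.45 (SE 0.092, limma adjusted p = 0.000263) in WT and rose by 0.28 (SE 0.092, limma adjusted p = 0.012) in RA. The RA call was lost without RA normal replicate 1 (0.217, limma adjusted p = 0.0957) or without RA starved replicate 2 (0.2, limma adjusted p = 0.139), and the WT call in none of the 8 such fits. Mars2 (GRCm38 chr1:55237177-55248470, plus strand) had 12.1 and 12.2 in WT normal and 13 and 12.5 in WT starved libraries. In RA cells Mars2 gave 13 and 11.2 in normal medium and 9.17 and 9.83 under starvation. The WT libraries differed by 0.062 (SE 0.091, limma adjusted p = 0.541) and the RA libraries fell by 0.31 (SE 0.091, limma adjusted p = 0.00579), a call lost in 2 of the fits that left out 1 library. Yars2 (tyrosine, GRCm38 chr16:16302965-16309640, plus strand) had 33.9 and 33.5 in WT normal and 31.9 and 32.9 in WT starved libraries. In RA cells Yars2 gave 34.5 and 37.1 in normal medium and 28.8 and 28.9 under starvation, and was lower in starved RA cells by 0.30 (SE 0.057, limma adjusted p = 0.000151), with -0.056 (SE 0.057, limma adjusted p = 0.372) in WT. Tars2 was called higher in RA, by 0.20 (SE 0.049, limma adjusted p = 0.00182), and not called in WT, at -0.072 (SE 0.049, limma adjusted p = 0.185).

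For 17 pairs of a cytosolic and a mitochondrial gene for the same amino acid (Eprs and Fars2 each entered 2 pairs), the log2 ratio between the genes of a pair is almost free of library scaling. The mean ratio was higher in starved cells in 14 pairs and lower in 3 in WT, and higher in 12 and lower in 5 in RA, with median changes of 0.74 and 0.55. The leucine and valine ratios overlapped between media in RA. Leucine, which holds Lars2, was among the lower pairs in both lines, with ratios of 0.261 and -1.3 in the RA starved libraries. Serine changed most in WT cells, while in RA cells proline (Eprs and Pars2) changed by 1.34 and serine by 1.2. The log2 ratio of Sars to Sars2 was 3.9 and 3.99 in WT normal, 6 and 5.93 in WT starved, 4.15 and 4.14 in RA normal and 5.44 and 5.25 in RA starved libraries. Tryptophan and isoleucine followed in WT, with changes of 1.73 and 1.34. Phenylalanine went the other way, since Fars2 rose more than either cytosolic subunit: the ratio of Farsa to Fars2 changed by -1.29 in WT and -1.1 in RA. Histidine and valine moved little, by 0.11 and 0.13 in WT and -0.16 and -0.038 in RA. No test was run on the ratios, since their members were chosen with results known.

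**Figure D3:**
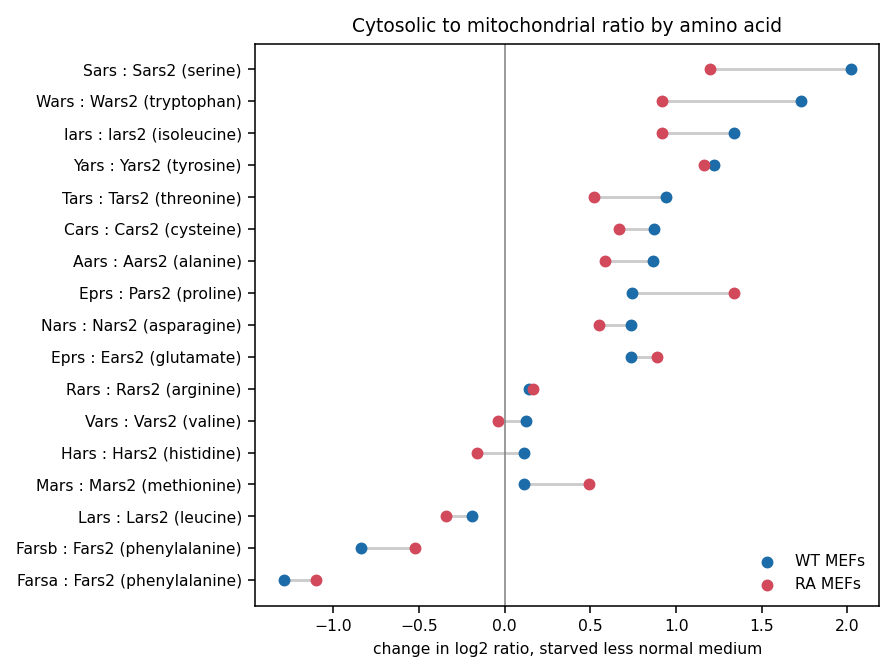
Change of the cytosolic to mitochondrial log2 ratio between starved and normal medium (x axis) for each amino acid (y axis), in WT (blue) and RA (red) MEFs, from group means of 2 libraries. Serine changed by 2.02 in WT and 1.2 in RA, and the 2 phenylalanine pairs lie on the negative side in both lines.

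The synthetases fall into classes I and II by the structure of the catalytic site, and Eprs, whose 2 activities are of different classes, was counted in neither. Among the other cytosolic genes, 9 of 9 class I genes were called higher in WT and 8 of 9 in RA, and class II had 6 higher and 3 lower of 10 in each line, with class medians of 0.48 and 0.61 in WT and 0.74 and 0.48 in RA. Every cytosolic gene called lower was thus of class II, where Kars was counted. Over all genes tested, 78.6% were called in WT (39.3% higher and 39.2% lower) and 68.7% in RA (35% higher and 33.7% lower). The mitochondrial shares called in WT lay on both sides of that, at 66.7% for class I and 85.7% for class II. Among mitochondrial genes class I had 5 higher and 1 lower in WT and 5 and 3 in RA, and class II 4 and 2 in WT and 5 and 0 in RA, so the calls lower in RA were there of class I.

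In normal medium the 2 lines did not differ by the main test in any of the 36 genes, against 9.63% of all genes tested (6.68% higher and 2.95% lower in RA). Log2 differences ran from -0.16 in Cars2 to 0.24 in Pars2, with medians of 0.062 for cytosolic and -0.051 for mitochondrial genes. At an unadjusted p under 0.05 limma found 5 cytosolic genes (Kars, Nars, Rars, Sars and Tars, all higher in RA) and 1 mitochondrial gene (Cars2, lower in RA). Over all genes tested, 4022 of 16232 passed that unadjusted threshold. edgeR on recovered reads called none of the 36 and DESeq2 called 1, Nars. The closest were Nars at 0.11 (SE 0.036, limma adjusted p = 0.0557) and Tars at 0.11 (SE 0.036, limma adjusted p = 0.0648). Cars2 was called with total-read scaling (-0.21, limma adjusted p = 0.0318), a scaling that also turned the split over all genes, from 69.4% of the calls higher in RA to 40.5%. A p above the threshold does not show that the lines had equal levels.

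Under starvation the lines separated. In this comparison 11 of 20 cytosolic genes were called, 3 higher and 8 lower in RA, against 62.9% of all genes (30.8% higher and 32.1% lower), and 8 of 16 mitochondrial genes, 4 higher and 4 lower. The shares called, 55% of the cytosolic and 50% of the mitochondrial genes, were under the background. Quantile normalization gave 4 higher and 8 lower among the mitochondrial genes. Kars was lower in RA by most among the cytosolic genes, -0.37 (SE 0.041, limma adjusted p = 6.99e-07), followed by Wars at -0.30 (SE 0.044, limma adjusted p = 1.46e-05) and Cars at -0.29 (SE 0.038, limma adjusted p = 4.77e-06). Cars (GRCm38 chr7:143557230-143600090, minus strand) had values of 84.5 and 83.5 in WT normal and 175 and 178 in WT starved libraries. In RA cells Cars gave 79.1 and 80.7 in normal medium and 144 and 144 under starvation, so the starved RA libraries lay below the starved WT ones. Lars was higher in RA starved cells by 0.45 (SE 0.035, limma adjusted p = 9.08e-09), Dars by 0.37 (SE 0.053, limma adjusted p = 1.13e-05) and Rars, the arginine enzyme, by 0.13 (SE 0.036, limma adjusted p = 0.00624). Rars (GRCm38 chr11:35808381-35834506, minus strand) read 183 and 186 in WT normal and 236 and 241 in WT starved libraries. In RA cells Rars gave 196 and 201 in normal medium and 263 and 258 under starvation, a small gap whose call was lost in 1 of the fits that left out 1 library.

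The mitochondrial genes higher in starved RA than starved WT cells were Sars2 (0.64, SE 0.092, limma adjusted p = 1.25e-05), Iars2 (0.36, SE 0.047, limma adjusted p = 5.37e-06), Wars2 (0.34, SE 0.070, limma adjusted p = 0.000449) and Tars2 (0.28, SE 0.049, limma adjusted p = 8.6e-05). Lower were Fars2 (-0.42, SE 0.086, limma adjusted p = 0.000406), Mars2 (-0.39, SE 0.091, limma adjusted p = 0.00133), Cars2 (-0.17, SE 0.057, limma adjusted p = 0.0142) and Yars2 (-0.16, SE 0.057, limma adjusted p = 0.0191). The Cars2 call was lost without WT starved replicate 2 (-0.128) or RA starved replicate 2 (-0.131), and the Yars2 call in 3 such fits (-0.164 to -0.142). In Sars2 the starved groups did not overlap and the RA mean was 1.56-fold that of WT on the log2(value + 1) scale. Cars2 (GRCm38 chr8:11513977-11550783, minus strand) was 39.8 and 37.9 in WT normal and 42.9 and 45.8 in WT starved libraries. In RA cells Cars2 gave 35.5 and 33.6 in normal medium and 40.4 and 38 under starvation, with RA values under WT values in both media and a call under starvation only, and shares 422 exon bases with Naxd on the opposite strand, which rose under starvation. The compartments thus did not shift as blocks: medians were -0.038 for cytosolic and -0.036 for mitochondrial genes, and -0.0081 for all genes.

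The interaction asks whether starvation changed a gene by a different amount in RA than in WT cells. It was called for 11 of 20 cytosolic genes, 2 positive and 9 negative, and for 9 of 16 mitochondrial genes, 5 positive and 4 negative, against 50.6% of all genes (24.5% positive and 26.1% negative). The sign gives the direction of the RA response relative to the WT response and not its size: Dars, with a positive value, changed by -0.38 in WT and -0.092 in RA, and Farsa, with a negative one, by -0.10 and -0.33. With total-read scaling the counts were 2 and 6 among the cytosolic and 5 and 1 among the mitochondrial genes. Kars (-0.45, SE 0.058, limma adjusted p = 6.47e-06), Wars (-0.37, SE 0.062, limma adjusted p = 0.000105) and Yars (-0.30, SE 0.055, limma adjusted p = 0.000203) had the most negative cytosolic values, and Lars (0.40, SE 0.050, limma adjusted p = 5.15e-06) and Dars (0.28, SE 0.075, limma adjusted p = 0.00457) the positive ones. Yars (GRCm38 chr4:129189760-129219607, plus strand) had 129 and 127 in WT normal and 287 and 289 in WT starved libraries. In RA cells Yars gave 129 and 136 in normal medium and 246 and 238 under starvation: the fed libraries of both lines were close and the starved RA libraries rose less far. Of the 12 listed ATF4 targets, 6 were called negative and 1, Lars, positive. For the 13 targets outside charging 8 were negative and 0 positive. Between the lines, 0 of the 12 were called in normal medium, and 1 higher and 5 lower in RA under starvation. Of the 13, 5 were called higher and 0 lower in RA in normal medium, against 9.63% of all genes called. Under starvation 5 of the 13 were higher and 5 lower in RA, against 62.9%. The medians of the 13 were 0.117 in normal medium and 0.0066 under starvation. Atf4 RNA had an interaction of 0.040 (SE 0.061, limma adjusted p = 0.614), which was not called.

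Of the mitochondrial genes, Sars2 (0.73, SE 0.13, limma adjusted p = 0.000181), Wars2 (0.45, SE 0.10, limma adjusted p = 0.00138) and Iars2 (0.33, SE 0.067, limma adjusted p = 0.00055) had the most positive interactions, and Pars2 (-0.56, SE 0.21, limma adjusted p = 0.0325), Fars2 (-0.41, SE 0.12, limma adjusted p = 0.01) and Mars2 (-0.37, SE 0.13, limma adjusted p = 0.0225) the most negative. Pars2, the proline enzyme (GRCm38 chr4:106651069-106655282, plus strand), had the lowest values of the 36, 3.96 and 6.25 in WT normal and 8.05 and 6.72 in WT starved libraries. In RA cells Pars2 gave 6.07 and 6.12 in normal medium and 5.92 and 5.53 under starvation. Its WT normal libraries differ by more than 1.5 times, and its interaction lost its call in 6 of the 8 fits that left out 1 library, which ran from -0.599 to -0.284 among those 6. Hars2 (0.22, SE 0.088, limma adjusted p = 0.0427) lost its call in 6 such fits, Mars2 in 4 and Fars2 in 2, whereas Sars2, Wars2 and Iars2 kept theirs in all 8.

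**Figure D4:**
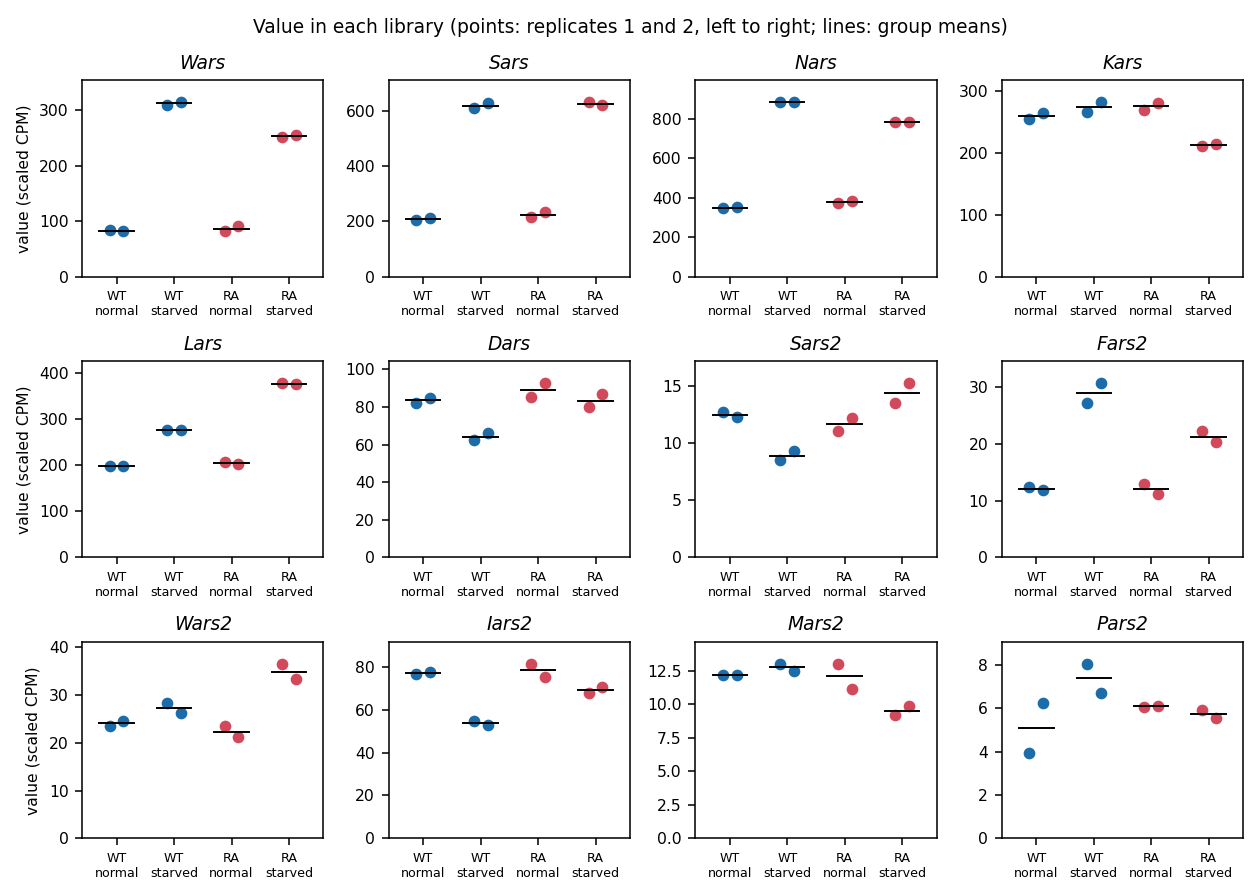
Value in scaled CPM (y axes start at 0) of 12 genes in each library, grouped by line and medium (x axis); the 2 points of a group are its replicates and the line is their mean, with WT in blue and RA in red. Wars, Sars and Nars rise in both lines, Kars falls in RA, and Sars2 falls in WT and is highest in RA starved libraries.

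Lars2 (GRCm38 chr9:123366927-123462666, plus strand) had replicates that disagreed. Its value was 266 and 251 in WT normal and 379.6 and 445 in WT starved libraries. In RA cells Lars2 gave 244 and 221 in normal medium and 316 and 926 under starvation, so that RA starved replicate 2 stood at 2.93 times replicate 1. The fit gave a rise of 0.67 (SE 0.28, limma adjusted p = 0.0374) in WT and 1.22 (SE 0.28, limma adjusted p = 0.000961) in RA, and a difference between starved lines of 0.40 (SE 0.28, limma adjusted p = 0.228). Without RA starved replicate 2 that last difference turned to -0.38 (limma adjusted p = 0.000682), and without replicate 1 it was 1.17 (limma adjusted p = 4.12e-09). The WT rise was not called in 4 of the 8 fits that left out 1 library, although both WT starved libraries lay above both fed ones. The RA response ranged from 0.44 to 1.99 when either starved RA library was left out. Of 12099 genes with a mean of at least 5, 14 were over 3-fold higher in RA starved replicate 2 than in replicate 1, and at most 2 genes in any other group were that far apart. Cdk8 (243 and 1164), Sspn (107 and 500.3) and Jarid2 (103 and 472) were among them, with a profile over the 8 libraries like that of Lars2, whereas Lars was level between the same libraries. Mir6236, annotated as a microRNA gene, went from 26.2 to 113 between the same libraries, although polyA RNA was sequenced. Whether the Lars2 values hold reads from introns or from other RNAs with like sequence was not tested, so they may not measure its mRNA alone. What sets that library apart was not tested.

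**Figure D5:**
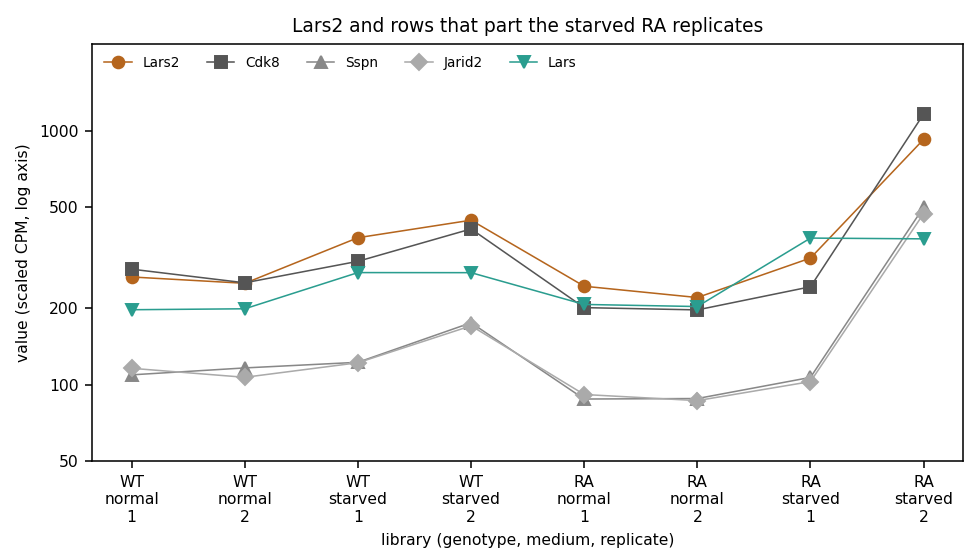
Value in scaled CPM (y axis, logarithmic) of Lars2, 3 genes that part the starved RA replicates (Cdk8, Sspn and Jarid2, in grey) and Lars in each of the 8 libraries (x axis); lines only join the points of a gene. Lars2 goes from 316 to 926 between the starved RA replicates, as the grey genes also rise, and Lars stays at 378 and 376.

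Other genes of tRNA charging were mixed: of 14, 7 were called higher and 4 lower in WT, and 6 and 3 in RA. Over all genes tested, 78.6% were called in WT and 68.7% in RA. Xpot, which exports tRNA from the nucleus, rose by 1.22 and 1.19, and Trnt1, which adds the CCA end that synthetases load, by 0.72 and 0.55. Gatb, a subunit of the amidotransferase that makes mitochondrial glutaminyl-tRNA, had values of 9.37 and 9.37 in WT normal and 3.69 and 4.79 in WT starved libraries. In RA cells Gatb gave 9.52 and 9.92 in normal medium and 10.7 and 8.36 under starvation. It fell in WT and was not called in RA, and the interaction was 0.96 (SE 0.17, limma adjusted p = 0.000203), while the partner subunits Gatc and Qrsl1 had WT differences of 0.36 and 0.17.

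Cytosolic elongation factors deliver charged tRNA to the ribosome and move it along. In WT 5 of 5 were called higher, against 39.3% of all genes tested. In RA 4 were called higher and 1, Eef1d, lower, against 35% and 33.7% of all genes. The interaction was called negative in 5 of 5 factors, against 26.1% of all genes. Eef2 had values of 2293 and 2338 in WT normal and 5548 and 5411 in WT starved libraries. In RA cells Eef2 gave 2402 and 2573 in normal medium and 3913 and 3860 under starvation, a response of 1.24 in WT and 0.64 in RA, and Eef1b2 an interaction of -0.73 (SE 0.056, limma adjusted p = 1.47e-08). Among 6 mitochondrial translation factors, 3 were higher and 2 lower in each line, against 78.6% of all genes called in WT and 68.7% in RA. Tsfm, the exchange factor for the mitochondrial elongation factor Tufm, rose by 1.20 (SE 0.055, limma adjusted p = 2.08e-12) in WT and 0.56 (SE 0.055, limma adjusted p = 9.94e-08) in RA, while Tufm fell by 0.40 and 0.57. Of 11 regulators of mitochondrial genes, 10 were tested (Ppargc1b was under the filter), with 7 higher and 2 lower in WT and 2 and 2 in RA. Those calls are 90% of the 10 in WT and 40% in RA, to be read against the same shares of all genes. Tfb1m, a methyltransferase of mitochondrial ribosomal RNA, fell by 0.92 and 0.47, and Polrmt, the mitochondrial RNA polymerase, rose by 0.58 in WT, with 0.11 in RA.

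Some members share exon bases with a neighbour in the annotation. Mars, the methionine enzyme, overlaps 68 bases of Ddit3 on the opposite strand, and Ddit3 went from 48.7 and 49.8 to 854 and 902 in WT, while Mars rose by only 0.17 in WT and 0.18 in RA. Aars shares 1326 bases with Exosc6 on the same strand, and that gene fell by 1.09 on the log2 scale in WT. Hars and Hars2 share 195 bases with each other, Vars2 shares 465 with Gm20483, Nars2 284 with C230038L03Rik, Ears2 89 with Ubfd1 and Yars 30 with C77080. The part of these neighbours in the members' values was not tested.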

How the data were processed

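RNA-seq libraries of polyA RNA were made by the authors with the TruSeq RNA v2 kit, which does not mark strand, and sequenced as paired ends. The submitters' processing notes name TopHat2 (version 2.0.9), bedtools, edgeR and the mm9 build. The counter, gene annotation and filters are not given in the sources used here. Groups were taken per the labels, and columns named minus and plus were read as normal and glucose-starved medium, as the study marks starvation.

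The deposited table holds a signal per gene, CPM of a library size scaled by the authors, with column sums from 965845 to 1029723. In every library 100% of the values were whole multiples of 1 read (tolerance 0.02 reads), from which reads were recovered. A value of 3 reads was 0.0548 to 0.069. Even numbers made up 78.2% to 80.5% of read counts from 1 to 9. Whether both ends of a fragment were counted was not tested. If they were, recovered reads outnumber fragments, which edgeR and DESeq2 on those reads do not allow for. Read totals cover counting error only. Of the rows, 18085 were at 0 throughout and 26 had names turned into dates.

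The 16232 genes that reached a value of 1 in 2 or more samples were fitted with limma (version 3.58.1, R version 4.3.3) on log2(value + 1), with a mean per group over 8 samples, eBayes with trend, 2-sided tests and Benjamini-Hochberg adjustment within each of 5 contrasts. A fold change on this scale understates that of low genes. The script was tested on simulated data. The design had assumed plain CPM, and the same test was kept for scaled CPM. Alternatives were DESeq2 (version 1.42.0) and edgeR (version 4.0.16), both fitted to the recovered reads, other scalings, pseudocounts, filters and thresholds, a replicate block and leaving out each library. The members and all lists were chosen with earlier results of these data known. Full values are given for the 3 called members with the largest positive and negative difference per contrast and compartment, and for Wars, Gars, Kars, Qars and Eprs. Positions, lengths and overlaps came from a GRCm38 annotation and were not used to map reads. Lars, Nars, Hars and Hars2 are given no positions.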

Additional observations from a re-analysis of the deposited data

Results flagged for a closer look

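For 20 of the 36 genes the starvation response differed between RA and WT cells by the test of the interaction (limma, adjusted p under 0.05, against 50.6% of all genes tested). Each value below is the log2 response in RA less that in WT. Cytosolic genes with a smaller or more negative response in RA were Kars (-0.45), Wars (-0.37), Yars (-0.30), Nars (-0.29), Cars (-0.22), Farsa (-0.22), Vars (-0.20), Aars (-0.15) and Tars (-0.15). Lars (0.40) and Dars (0.28) had a more positive response in RA. Mitochondrial genes with a more positive response in RA were Sars2 (0.73), Wars2 (0.45), Iars2 (0.33), Tars2 (0.27) and Hars2 (0.22). A more negative response in RA was found for Pars2 (-0.56), Fars2 (-0.41), Mars2 (-0.37) and Yars2 (-0.25). Other scalings also ended some calls. Among them were Vars with total-read scaling (-0.124, limma adjusted p = 0.0578) and Farsa with quantile normalization (-0.143, limma adjusted p = 0.0605). Of these 20 calls, 7 were lost in at least 1 of the 8 fits that left out 1 library, and those were Aars, Tars, Fars2, Hars2, Mars2, Pars2 and Yars2.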

How the results depend on the processing

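Of the counts of called members under an alternative, 209 stayed within 1.5 times and 16 did not. Differences of the compartments' medians moved by less than 1 SD between replicates in 72 cases and by more in 18, and medians of 1 compartment in 143 and 32. Calls that also had to be 2-fold numbered 8 cytosolic and 1 mitochondrial in the WT response, 5 and 1 in the RA response, and 0 and 0 both for RA against WT under starvation and for the interaction. The interaction gave 4 mitochondrial calls at an adjusted p under 0.01 and 7 cytosolic calls by eBayes without trend. For RA against WT in normal medium, where none was called, 1 cytosolic gene was called with the filter at 5 and by DESeq2, and 1 mitochondrial gene with total-read scaling.

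The difference of the compartments' medians in the WT response, 0.471, was 0.468 and 0.481 with pseudocounts of 0.1 and 5, 0.469 with total-read scaling, 0.439 with quantile normalization, 0.467 by edgeR and by DESeq2, and 0.477 without Lars2. Under starvation, RA against WT, it was -0.003, and 0.037 with quantile normalization and 0.094 without Lars2, the latter chosen after seeing the data.

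Leaving out 1 library at a time gave 17 to 19 cytosolic and 8 to 12 mitochondrial calls in the WT response (difference of medians 0.458 to 0.514), 18 to 19 and 10 to 13 in RA (0.467 to 0.553), and 0 to 4 and 0 to 1 for RA against WT in normal medium (0.034 to 0.162). It gave 9 to 11 and 7 to 10 under starvation (-0.058 to 0.076), and 9 to 12 and 6 to 8 for the interaction (-0.158 to -0.063). The 4 cytosolic calls in normal medium came without RA normal replicate 1, and the 8 mitochondrial calls of the WT response without WT normal replicate 1 or WT starved replicate 2. RA against WT under starvation for Lars2 was -0.38 without RA starved replicate 2 and 1.17 without replicate 1, the only reversal of a member.

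Groups share replicate numbers, and same-numbered libraries deviated together only weakly (correlations from -0.0076 to 0.157). Such correlations cannot show whether same-numbered libraries were handled together, and the labels do not say, so a pairing of the samples stays unsettled. With the replicate block, 2 cytosolic genes were called in normal medium (Nars and Tars), and the other counts stayed within 1.5 times of those without it. The lowest count of a member was 182 reads, and the 2 libraries per group limit the precision of each spread.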
